A study of Mus musculus with 12 samples.

Results

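The 10 hepatoblast and progenitor markers described here are *Afp*, *Gpc3*, *Prom1*, *Epcam*, *Cd24a*, *Cd44*, *Sox9*, *Icam1*, *Ncam1* and *Anpep*. They were chosen by name, as the rows of the deposited expression table that carry these symbols, and they are 10 of the 45706 genes listed. RNA-seq was performed on 12 libraries of BN1-Tie2-EGFP cells, a murine hepatoblastoma (HB) line from a tumor driven by mutant β-catenin (B) and mutant NRF2 (N). Unsorted cells in normoxia (UN, 21% oxygen) and unsorted cells kept in 1% oxygen for 2 days (UH) made up 3 libraries each. Sorted normoxic cells (SN) had been selected for EGFP after 2 days of hypoxia and then expanded in 21% oxygen for about 10 days, and sorted hypoxic cells (SH) were SN cells placed again in 1% oxygen for 2 days, again with 3 libraries each. Libraries of all 4 groups carry the genotype label *Cdkn2a* KO, since exon targeting of this tumor suppressor was used to immortalize the line, so no group has an intact *Cdkn2a* control. EGFP was driven by the promoter of *Tek* (Tie2), an endothelial receptor gene, in stably transfected cells of a single tumor line. A difference between sorted and unsorted libraries therefore comes with the sort and whichever cells it selected, a further hypoxic period and the expansion, which cannot be told apart.

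Hepatoblasts are the bipotent cells of the fetal liver that give rise to hepatocytes and to the cholangiocytes that line bile ducts. AFP and glypican-3 are made by fetal liver and again by many hepatoblastomas, and AFP in serum is the standard marker of this tumor. Progenitor cells of the liver and its tumors are commonly recognized by surface proteins such as EpCAM, CD133, CD24, CD44, NCAM and CD13, and by the transcription factor SOX9, while ICAM-1 is an inducible adhesion receptor that hepatic progenitors also carry.

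Values are TPM (transcript abundances scaled to a common library total), which are corrected for transcript length. The read depth behind a TPM value is unknown, so errors are given as the spread between 3 libraries. Values were put on a log2(TPM + 1) scale, and limma was fitted to all 12 libraries together for the 18909 genes that averaged 0.1 TPM or more. A gene was called when its p, adjusted by the Benjamini-Hochberg method, was under 0.05 and its log2 difference was beyond 1. The added 1 makes differences of genes under a few TPM smaller than their TPM ratios. Of the 10 markers, 9 were tested, while *Epcam* had a mean of 0.0873 TPM and fell below the filter. Two-sided exact permutation tests of single genes cannot go below p = 0.1 with 3 libraries against 3, so groups that do not overlap are only described. In bulk RNA, fewer cells of a type and less RNA per cell cannot be told apart.

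The hepatocyte markers listed were scarce in all groups, though this list leaves out *Gc*, a plasma protein gene given below at higher levels. Of 14 hepatocyte markers, 13 had a mean under 1 TPM, *F9* was listed at 0 throughout, and the 14 together summed to between 0.274 and 7.76 TPM. *Ptprc*, the pan-leukocyte marker, was at most 0.121 TPM. Replicate 1 of UN stood apart from its group, with a correlation across genes of 0.977 to 0.978 with the other UN libraries, which correlated at 0.990. Its 10 mesenchymal markers, led by collagen genes, summed to 5161 TPM against 1323 and 1176 TPM in the other UN libraries. The same sum was 4853 to 7134 TPM in UH, 201 to 211 TPM in SN and 56.6 to 77.9 TPM in SH, and its part in the results was not tested. Of 9 mesenchymal markers tested in SN against UN, 5 were called lower and 0 higher. Not all fell, with *Pdgfrb* at means of 44.7 TPM in UN and 43.8 TPM in SN. The main differences of *Prom1*, *Gpc3* and *Icam1* from UN are given with and without replicate 1. As a check of the treatment, 9 of 10 hypoxia-inducible genes were called higher in UH than in UN, and 9 of 10 in SH than in SN. *Tek*, whose promoter the sort used, had a mean of 0.133 TPM in UN, 0.156 TPM in UH, 2.49 TPM in SN and 3.04 TPM in SH. *Cdkn2a* transcripts were still listed, at means of 265.1 TPM in UN, 74.1 TPM in UH, 13.2 TPM in SN and 8.46 TPM in SH. These levels moved with the sorted and unsorted comparisons, although the genotype label is the same, and their part in the marker differences was not tested.

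Levels of the markers spanned several orders of magnitude on the TPM scale. *Cd24a* was above 96.8% of tested genes by mean TPM, *Ncam1* above 94.4%, *Cd44* above 92.8% and *Sox9* above 75.5%. *Prom1* was above 51.7% and *Afp* above 42.9% of tested genes. *Icam1* (33.6%), *Gpc3* (27.9%) and *Anpep* (25.8%) were in the lower part of the distribution. Thus 4 surface or nuclear markers were abundant in these cells, while the oncofetal marker *Afp* was of middling rank.

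**Figure D1:**
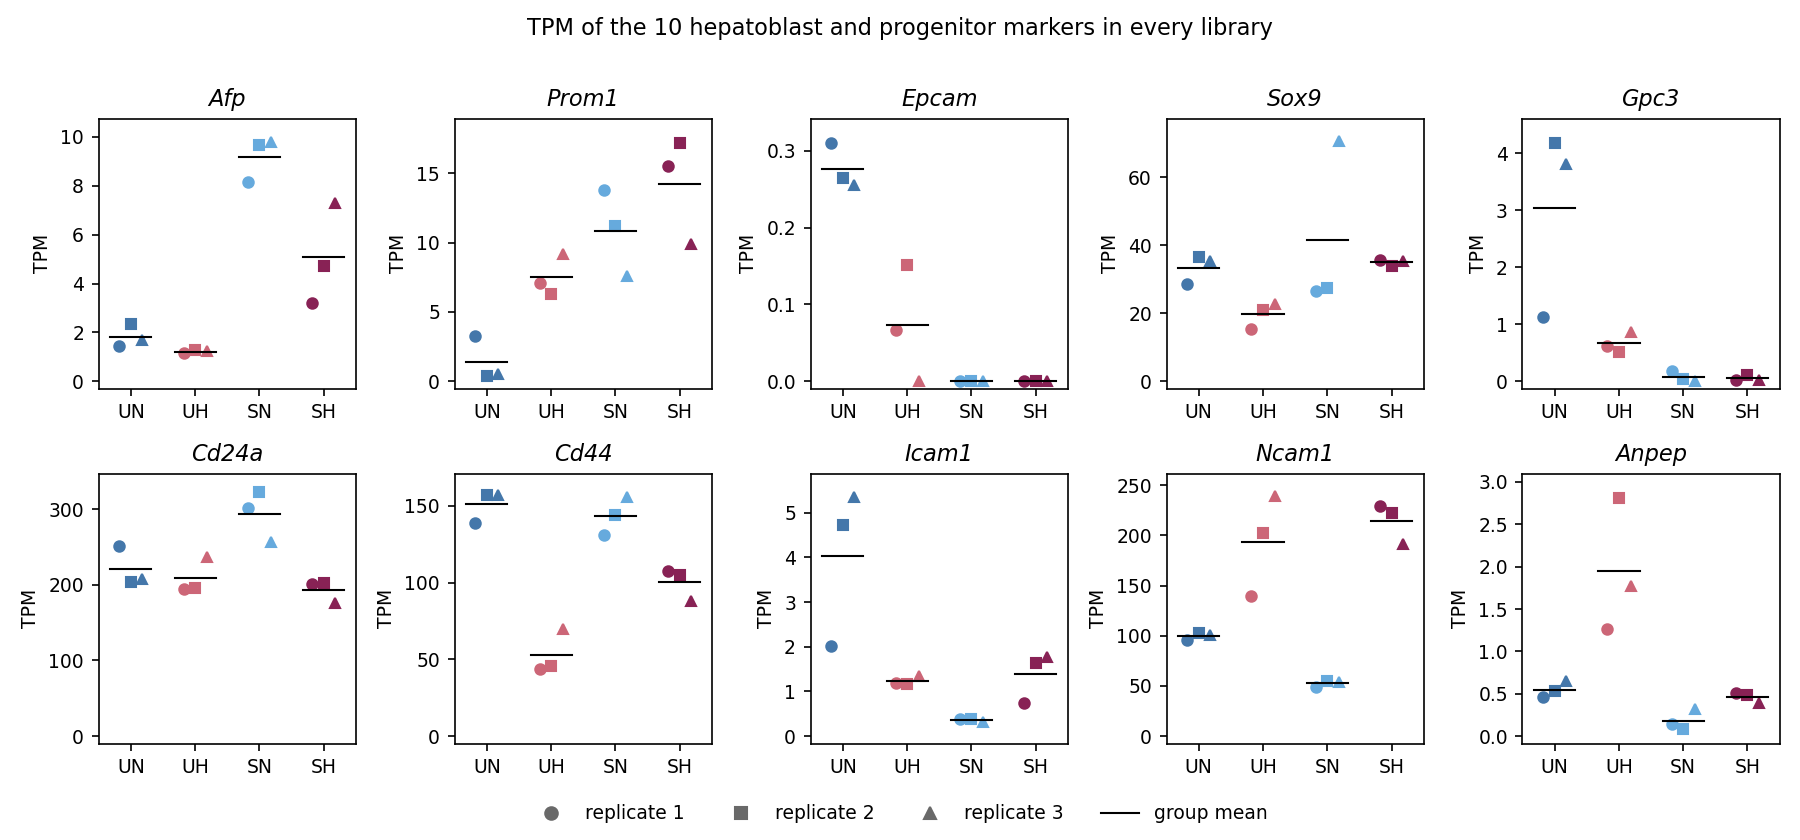
TPM (vertical axes, linear, from 0) of each marker in the 4 groups (horizontal axes). Points are single libraries, with a symbol for each replicate number, and bars are group means of 3 libraries. *Afp* is highest in the sorted groups, *Ncam1* is highest in the hypoxic groups, and *Epcam* is listed at 0 in both sorted groups.

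The secreted oncofetal marker *Afp* (ENSMUSG00000054932, chr5:90490737-90508907, plus strand, GRCm38) encodes α-fetoprotein, the main plasma protein of the fetus. *Afp* was 1.43, 2.34 and 1.71 TPM in UN and 1.15, 1.28 and 1.22 TPM in UH. It was 8.14, 9.65 and 9.80 TPM in SN and 3.22, 4.71 and 7.30 TPM in SH. The order of the groups was SN, SH, UN and UH, and no neighbors in this order overlapped. *Afp* rose with sorting, from 1.83 ± 0.469 TPM in UN to 9.20 ± 0.919 TPM in SN (SD, n = 3), a ratio of 5.04. Its log2(TPM + 1) difference was 1.86 (SE 0.223, limma adjusted p = 7.74e-05). Under hypoxia *Afp* was likewise higher in sorted cells, by 1.40 in SH against UH (SE 0.223, limma adjusted p = 4.14e-04). Each of these calls held without any 1 library, with log2 differences of 1.76 to 1.99 and of 1.15 to 1.64. Hypoxia did not bring a call in either population. The log2(TPM + 1) difference was −0.34 in UH against UN (limma adjusted p = 0.243) and −0.80 in SH against SN (limma adjusted p = 0.0133), where the fold threshold was missed. SH replicate 3 was the highest SH library, and without it the SH to SN difference was −1.05 and was called.

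The 250 bases upstream of the RefSeq *Afp* start are shown because *Afp* was the 1 gene of its cluster called higher in sorted cells. This start lies before the GENCODE start given for the gene above. The sequence is from RefSeq (GRCm38.p6, chr5:90490464-90490713, plus strand), and the capitals mark GTTAAT, a core of the HNF1 recognition sequence, 105 to 100 bases before the start. This motif, searched on both strands, was present in 6.43% of 32851 such upstream sequences.
Afp: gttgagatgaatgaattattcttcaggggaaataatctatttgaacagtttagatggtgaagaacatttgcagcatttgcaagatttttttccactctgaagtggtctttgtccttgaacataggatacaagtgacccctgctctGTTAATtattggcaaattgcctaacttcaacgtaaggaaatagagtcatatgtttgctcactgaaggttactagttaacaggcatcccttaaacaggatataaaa
The match is a description of these letters and was not tested as a site. Upstream sequences of 7 markers were matched in the RefSeq table.

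*Afp* lies in a cluster of albumin family genes with *Alb* (albumin), *Afm* (afamin) and, farther along the chromosome, *Gc* (vitamin D-binding protein). *Gc* was 175.3, 334.9 and 357.1 TPM in UN, 102.3, 102.1 and 99.1 TPM in UH, 27.5, 25.7 and 19.7 TPM in SN and 6.91, 6.34 and 6.36 TPM in SH. The order was thus UN, UH, SN and SH with no overlap, and *Gc* fell by 3.46 on the log2(TPM + 1) scale from UN to SN (limma adjusted p = 5.33e-07), and by 3.79 without UN replicate 1. *Alb* was 2.07, 2.16 and 3.30 TPM in UN, and 0.636, 0 and 0 TPM in SN. It too was called lower in SN than in UN, by −1.56 (limma adjusted p = 0.00674), although its levels were near the lower end of the table. *Afm* was called lower in UH than in UN, by −1.20 (limma adjusted p = 5.20e-04), and was −0.48 in SN against UN (limma adjusted p = 0.0943). *Afp* was therefore the 1 gene of these 4 that was called higher in sorted cells.

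Among genes that regulate *Afp*, *Zbtb20* encodes a zinc-finger repressor that shuts off *Afp* after birth. *Zbtb20* was 3.45, 2.11 and 3.21 TPM in UN, 1.62, 2.99 and 2.83 TPM in UH, 6.63, 8.85 and 9.68 TPM in SN, and 6.90, 7.51 and 5.98 TPM in SH. It was called higher in SN than in UN, by 1.26 (limma adjusted p = 7.68e-04), and in SH than in UH, by 1.18 (limma adjusted p = 9.05e-04), so that this repressor was higher in the same libraries as *Afp*. *Zhx2*, also a postnatal repressor of *Afp*, had a log2(TPM + 1) difference of 0.89 in SN against UN (limma adjusted p = 4.38e-04), under the fold threshold, and was called there after quantile normalization (1.01). Of the 10 cluster and regulator genes listed, *Zbtb20* was called higher and 4 were called lower in SN against UN. The 4 were *Gc*, *Alb*, *Foxa2* (−1.21) and *Nr5a2* (−1.01), the last 2 of which encode transcription factors that activate liver genes. The count of lower genes was 3 after median-of-ratios scaling, 2 after quantile normalization and 5 without UN replicate 1. In UH against UN, 0 of the 10 were called higher and 4 were called lower. Medians of the 10 were −0.86 in SN against UN and −0.61 in UH against UN, beside −0.06 and −0.19 over all genes tested.

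**Figure D2:**
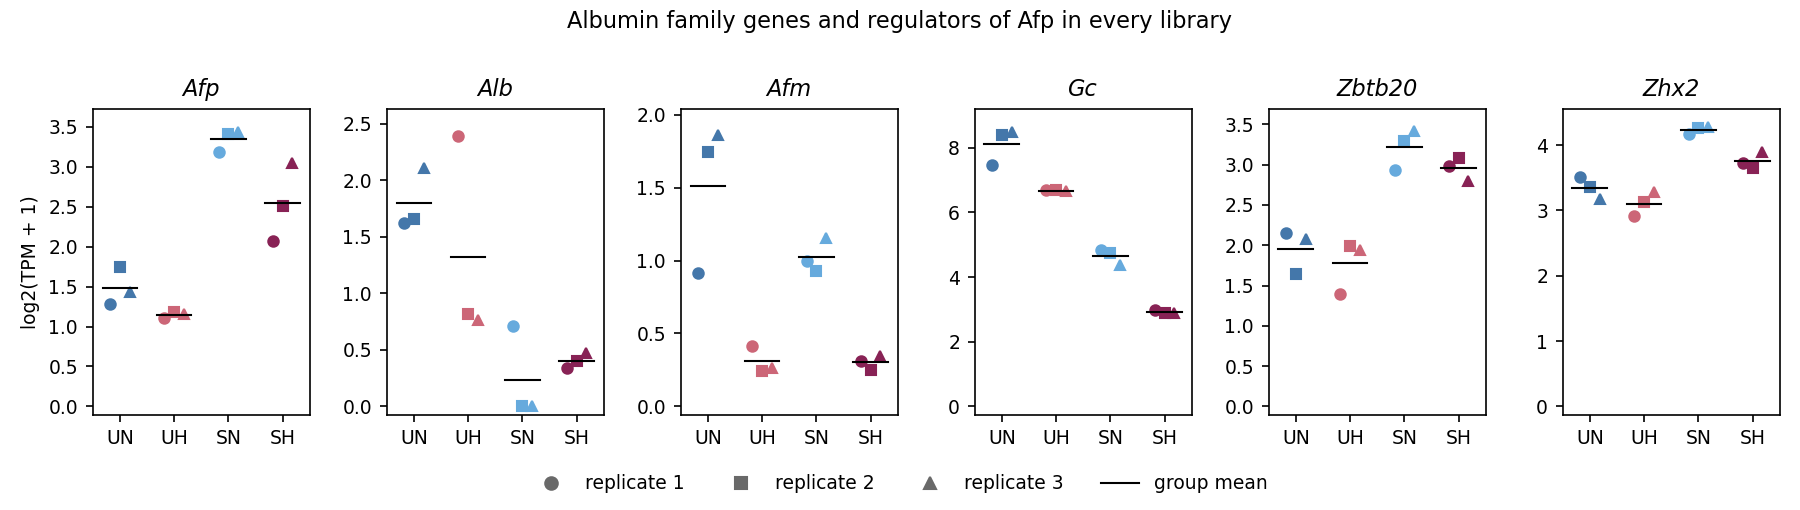
Log2(TPM + 1) (vertical axes) of *Afp*, 3 other albumin family genes and 2 repressors of *Afp* in the 4 groups (horizontal axes). Points are libraries and bars are group means (n = 3). *Afp*, *Zbtb20* and *Zhx2* are higher in SN than in every UN library, whereas *Gc* is lower in each successive group.

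*Gpc3* (ENSMUSG00000055653, chrX:52272426-52613950, minus strand) encodes glypican-3, a cell-surface heparan sulfate proteoglycan and oncofetal marker of hepatoblastoma and hepatocellular carcinoma. *Gpc3* was 1.13, 4.18 and 3.81 TPM in UN and 0.612, 0.517 and 0.864 TPM in UH. It was 0.173, 0.0359 and 0 TPM in SN and 0.0299, 0.116 and 0.0254 TPM in SH. UN exceeded UH, and both exceeded the sorted groups, without overlap, while SN and SH overlapped. From UN to UH the mean fell from 3.04 ± 1.66 to 0.664 ± 0.179 TPM (SD, n = 3), a log2(TPM + 1) difference of −1.18 (SE 0.267, limma adjusted p = 0.00333). In SN against UN *Gpc3* fell by 1.82 on the log2(TPM + 1) scale (SE 0.267, limma adjusted p = 3.18e-04). Replicate 1 was the lowest UN library, and without it these differences were −1.59 and −2.23. The call in UH against UN was lost without UN replicate 2 (−0.95), after median-of-ratios scaling (−0.98) and in a fit of UN and UH alone (limma adjusted p = 0.0506).

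The 27 listed partners of the markers included 2 other glypicans. *Gpc4*, also a heparan sulfate proteoglycan, averaged 65.4 ± 7.06 TPM in UN and 19.3 ± 1.17 TPM in SN (SD, n = 3), and it fell by 1.71 on the log2(TPM + 1) scale (limma adjusted p = 1.21e-05). *Gpc1* differed in the other direction, with 15.0 ± 5.27 TPM in UN and 31.8 ± 5.48 TPM in SN, and was called higher in SN by 1.08 (limma adjusted p = 0.00288). Without UN replicate 1 the difference of *Gpc1* was 0.78 and under the fold threshold. The glypicans thus differed in direction between SN and UN, with *Gpc3* and *Gpc4* lower and *Gpc1* higher.

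*Prom1* (ENSMUSG00000029086, chr5:43993620-44102032, minus strand) encodes CD133, a cholesterol-binding protein of membrane protrusions that is widely used to isolate stem and tumor-initiating cells. *Prom1* was 3.25, 0.379 and 0.550 TPM in UN and 7.08, 6.27 and 9.20 TPM in UH. It was 13.8, 11.2 and 7.57 TPM in SN and 15.5, 17.2 and 9.90 TPM in SH. Every other library was above every UN library, while SH overlapped SN and SN overlapped UH. From UN to UH the mean rose from 1.39 ± 1.61 to 7.51 ± 1.51 TPM (SD, n = 3), and the log2(TPM + 1) difference was 2.01 (SE 0.384, limma adjusted p = 0.00111). *Prom1* also rose from UN to SN, to 10.9 ± 3.14 TPM, a difference of 2.47 (SE 0.384, limma adjusted p = 4.71e-04). Without UN replicate 1, the highest UN library, these differences were 2.53 and 2.98. Once the cells were sorted, hypoxia gave no call, with a difference of 0.36 in SH against SN (95% interval −0.48 to 1.20, limma adjusted p = 0.499).

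*Epcam* (ENSMUSG00000045394, chr17:87635979-87651129, plus strand) encodes EpCAM, an epithelial adhesion protein of hepatoblasts and bile ducts. *Epcam* was 0.310, 0.264 and 0.256 TPM in UN and 0.0669, 0.151 and 0 TPM in UH, and it was listed at 0 in each of the 6 sorted libraries. UN was above the other groups without overlap, at a level below that of most tested genes. With no filter on low values the log2(TPM + 1) difference was −0.25 in UH against UN (limma adjusted p = 0.00123) and −0.35 in SN against UN (limma adjusted p = 2.91e-04), neither of which reached the fold threshold. E-cadherin (*Cdh1*), which marks the same epithelium, was 5.81, 10.3 and 11.1 TPM in UN, 1.27, 1.48 and 1.69 TPM in UH, 0.573, 0.528 and 0.488 TPM in SN, and 0.275, 0.350 and 0.258 TPM in SH. *Cdh1* was called lower in UH than in UN (−1.98, limma adjusted p = 8.74e-06) and in SN than in UN (−2.68, limma adjusted p = 1.51e-06). Both of these adhesion genes were thus highest in UN, but the listed keratin genes of epithelium differed in direction between SN and UN. *Krt8* (−3.43) and *Krt19* (−5.00) were called lower in SN, *Krt7* (1.12) was called higher, and *Krt18* (0.45) was not called.

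*Cd24a* (ENSMUSG00000047139, chr10:43578284-43584265, plus strand) encodes CD24, a small mucin-like surface glycoprotein anchored to the membrane by a lipid. *Cd24a* was 251.8, 203.7 and 208.2 TPM in UN and 194.9, 195.1 and 236.4 TPM in UH. It was 301.5, 323.0 and 256.9 TPM in SN and 201.7, 202.9 and 175.7 TPM in SH. SN was above the other groups without overlap, whereas UN overlapped UH and UH overlapped SH. *Cd24a* was not called in any comparison. Its log2(TPM + 1) difference was −0.60 in SH against SN (SE 0.123, limma adjusted p = 0.00235) and 0.41 in SN against UN (limma adjusted p = 0.0238), both past the adjusted p and under the fold threshold. Of its 31-base words, 4.98% were also found in other annotated transcripts, led by *Gm6212* and *Gm15352*. A small part of its reads may thus not be unique. The share was 7.48% for *Prom1*, led by the antisense gene *Gm16401*, and 4.3% for *Ncam1*, led by *Olfr2*.

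*Cd44* (ENSMUSG00000005087, chr2:102811141-102901665, minus strand) encodes the receptor for hyaluronan, an extracellular polysaccharide, and binds osteopontin as well. *Cd44* was 138.7, 157.2 and 157.1 TPM in UN and 43.9, 45.5 and 69.5 TPM in UH. It was 131.1, 144.1 and 155.7 TPM in SN and 107.6, 105.1 and 87.8 TPM in SH. Both hypoxic groups were below their normoxic group without overlap, and UN and SN overlapped. From UN to UH *Cd44* fell from 151.0 ± 10.7 to 53.0 ± 14.4 TPM (SD, n = 3), a log2(TPM + 1) difference of −1.52 (SE 0.159, limma adjusted p = 1.36e-05). In sorted cells the means were 143.6 ± 12.3 TPM in SN and 100.2 ± 10.8 TPM in SH (SD, n = 3). That difference was −0.52 (SE 0.159, limma adjusted p = 0.0217), under the fold threshold. The call in UH against UN held in all alternatives run for it, between −1.73 and −1.17.

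Genes that make or share the ligands of CD44 also differed. *Has2*, which encodes a hyaluronan synthase, was 27.0, 42.8 and 41.6 TPM in UN and 4.26, 4.56 and 6.57 TPM in UH. It was 0.0585, 0.0363 and 0.337 TPM in SN and 0.333, 0.249 and 0.322 TPM in SH. Levels in SN were too low for a fall past the fold threshold to be measured there. *Has2* fell by 2.63 from UN to UH (limma adjusted p = 1.65e-06) and by 5.04 from UN to SN (limma adjusted p = 1.23e-08), on the log2(TPM + 1) scale. *Has3*, which encodes another hyaluronan synthase, was 8.76, 8.71 and 11.5 TPM in UN, 6.68, 4.72 and 6.56 TPM in UH, 17.7, 16.5 and 14.8 TPM in SN, and 10.5, 8.82 and 9.84 TPM in SH. Its log2(TPM + 1) difference was −0.61 in UH against UN (limma adjusted p = 0.00732), −0.69 in SH against SN (limma adjusted p = 0.00422) and 0.71 in SN against UN (limma adjusted p = 0.00471), all under the fold threshold. *Hmmr*, a further hyaluronan-binding protein with a role in mitosis, averaged 34.1 ± 1.13 TPM in UN, 6.44 ± 1.91 TPM in UH, 25.3 ± 3.99 TPM in SN and 26.7 ± 1.85 TPM in SH (SD, n = 3). Like *Cd44*, it was lowest in UH, with a fall of 2.27 from UN (limma adjusted p = 1.44e-06). *Spp1*, which encodes osteopontin and is also a biliary progenitor gene, averaged 2832 ± 162 TPM in UN, 640.6 ± 50.4 TPM in UH, 4485 ± 334 TPM in SN and 929.7 ± 95.2 TPM in SH. It fell in hypoxia in both populations, by 2.14 (limma adjusted p = 7.41e-08) and by 2.27 (limma adjusted p = 1.00e-07). *Cd44*, *Has2*, *Hmmr* and *Spp1* were thus called lower in UH than in UN, and *Has3* was not.

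*Sox9* (ENSMUSG00000000567, chr11:112782224-112787760, plus strand) encodes a transcription factor of bile duct cells and of bipotent liver progenitors. *Sox9* was 28.5, 36.5 and 35.3 TPM in UN and 15.3, 20.99 and 22.6 TPM in UH. It was 26.6, 27.5 and 70.8 TPM in SN and 35.7, 33.9 and 35.4 TPM in SH. UH was below the other groups without overlap, and the high SN mean of 41.6 ± 25.2 TPM (SD, n = 3) rested on replicate 3. *Sox9* was not called in any comparison. Its log2(TPM + 1) difference was −0.75 in UH against UN (SE 0.300, limma adjusted p = 0.0607) and 0.16 in SN against UN (SE 0.300, limma adjusted p = 0.730). Without SN replicate 3 the latter was −0.29. SN replicate 3 was also high in *Nfkbia*, an inhibitor of NF-κB and itself an early response gene, with 211.8 TPM against 91.8 and 84.0 TPM in the other SN libraries.

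*Icam1* (ENSMUSG00000037405, chr9:21015985-21028817, plus strand) encodes ICAM-1, an adhesion receptor that binds leukocyte integrins and is a well-known target of NF-κB. The 250 bases upstream of its RefSeq start are shown because the hypoxic difference of *Icam1* had opposite signs in the 2 populations. This start too lies before the GENCODE start given for the gene. The sequence is from RefSeq (GRCm38.p6, chr9:21015690-21015939, plus strand). Capitals mark GGAAATTCC, an NF-κB motif, 153 to 145 bases before the start, and GCGTG, a form of the core bound by hypoxia-inducible factors, 242 to 238 bases before the start.
Icam1: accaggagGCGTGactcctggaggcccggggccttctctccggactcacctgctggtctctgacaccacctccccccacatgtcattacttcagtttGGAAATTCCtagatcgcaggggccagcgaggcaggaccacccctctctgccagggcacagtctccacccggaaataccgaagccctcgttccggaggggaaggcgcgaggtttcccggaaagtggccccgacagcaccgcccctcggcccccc
GGAAATTCC was present on either strand in 94 of 32851 upstream sequences (0.286%). Only this exact string was searched, so the share is not that of NF-κB motifs in general. ACGTG or GCGTG, searched on both strands, was present in 38.6% of them, and in those of 4 markers (*Cd44*, *Anpep*, *Icam1* and *Gpc3*) among the 7 with an entry. These matches describe letters and were not tested as sites.

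*Icam1* was 2.01, 4.72 and 5.34 TPM in UN and 1.19, 1.16 and 1.34 TPM in UH. It was 0.376, 0.388 and 0.314 TPM in SN and 0.749, 1.63 and 1.78 TPM in SH. UN was the highest group and SN the lowest, both without overlap, and UH and SH overlapped. In unsorted cells *Icam1* fell with hypoxia, from 4.02 ± 1.77 to 1.23 ± 0.0936 TPM (SD, n = 3), a log2(TPM + 1) difference of −1.10 (SE 0.258, limma adjusted p = 0.00416). In sorted cells the mean was 0.359 ± 0.0394 TPM in SN and 1.39 ± 0.557 TPM in SH, a ratio of 3.86. On the log2(TPM + 1) scale this was 0.78 (SE 0.258, limma adjusted p = 0.0296), under the fold threshold, and it was called with a pseudocount of 0.1 (1.62). From UN to SN *Icam1* fell by 1.82 (SE 0.258, limma adjusted p = 2.54e-04), and by 2.15 without UN replicate 1, the lowest UN library. The call in UH against UN was lost without UN replicate 2 or 3, where the smallest difference was −0.90, and after median-of-ratios scaling (−0.86) and quantile normalization (−0.90), and without UN replicate 1 the difference was −1.43. Of the 31-base words of its transcripts, 14.8% were shared with other annotated transcripts, led by the antisense gene *Gm47079*. The kit was stranded, but whether the quantification used strand is not given in the sources used here.

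*Vcam1*, which encodes the related adhesion receptor VCAM-1, averaged 133.8 ± 29.6 TPM in UN, 15.8 ± 2.89 TPM in UH, 69.7 ± 10.6 TPM in SN and 17.1 ± 1.84 TPM in SH (SD, n = 3). It fell with hypoxia in both populations, by 2.99 in unsorted cells (limma adjusted p = 2.47e-07) and by 1.96 in sorted cells (limma adjusted p = 9.56e-06). The pair of receptors thus fell together in unsorted cells, while in sorted cells the difference of *Icam1* was positive. *Relb*, an NF-κB subunit, was not called in any comparison, with differences of −0.47 in UH against UN and 0.43 in SH against SN.

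*Ncam1* (ENSMUSG00000039542, chr9:49502136-49798925, minus strand) encodes NCAM, a homophilic adhesion molecule of neural cells that is also found on hepatic progenitors and reactive ductules. *Ncam1* was 95.6, 102.4 and 100.5 TPM in UN and 139.4, 202.0 and 239.6 TPM in UH. It was 49.3, 55.3 and 54.2 TPM in SN and 229.4, 221.9 and 191.0 TPM in SH. Both hypoxic groups were above both normoxic groups without overlap, and SN was the lowest. In sorted cells *Ncam1* rose with hypoxia from 52.9 ± 3.21 to 214.1 ± 20.3 TPM (SD, n = 3), a ratio of 4.05 and a log2(TPM + 1) difference of 1.99 (SE 0.161, limma adjusted p = 3.40e-06). In unsorted cells the means were 99.5 ± 3.50 and 193.7 ± 50.6 TPM, and the difference of 0.92 (SE 0.161, limma adjusted p = 6.15e-04) was just under the fold threshold. It was called without UH replicate 1, the lowest UH library (1.14), and after median-of-ratios scaling (1.27). The difference of −0.90 in SN against UN (limma adjusted p = 0.00119) was also under the fold threshold, and the sorted and unsorted hypoxic groups overlapped.

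*Anpep* (ENSMUSG00000039062, chr7:79821803-79861059, minus strand) encodes CD13, a membrane aminopeptidase of the hepatocyte canaliculus and a marker of liver cancer stem cells. *Anpep* was 0.461, 0.527 and 0.654 TPM in UN and 1.27, 2.81 and 1.78 TPM in UH. It was 0.146, 0.0793 and 0.319 TPM in SN and 0.510, 0.481 and 0.390 TPM in SH. UH was the highest group and SN the lowest, both without overlap, and UN and SH overlapped. The mean was 0.548 ± 0.0981 TPM in UN and 1.95 ± 0.787 TPM in UH (SD, n = 3), a ratio of 3.57. On the log2(TPM + 1) scale this was 0.90 (SE 0.169, limma adjusted p = 0.00100), under the fold threshold, and it was called with a pseudocount of 0.1 (1.61) and after median-of-ratios scaling (1.08). In SH against UH the difference was −0.98 (SE 0.169, limma adjusted p = 7.13e-04), also just under that threshold.

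Other membrane peptidases gave differing patterns. *Dpp4*, which encodes the dipeptidyl peptidase CD26, was 0.608, 0.570 and 1.17 TPM in UN and 4.10, 3.81 and 4.31 TPM in UH. It was 0.0234, 0.771 and 0 TPM in SN and was listed at 0 in each SH library. Like *Anpep*, *Dpp4* was highest in UH, and it was called higher there than in UN, by 1.52 (limma adjusted p = 9.33e-05). *Enpep*, which encodes glutamyl aminopeptidase, averaged 23.7 ± 12.7 TPM in UN and 3.03 ± 1.24 TPM in UH (SD, n = 3), and fell by 2.48 (limma adjusted p = 3.56e-04), or by 3.03 without UN replicate 1.

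Hypoxia in unsorted cells (UH against UN) was the comparison with the most markers whose libraries did not overlap, though SH against UN had more calls. *Prom1* rose, and *Cd44*, *Gpc3* and *Icam1* fell. These were 4 of 9 tested markers, beside 17.2% called among all genes tested. *Ncam1* and *Anpep* passed the adjusted p but not the fold threshold, and *Afp*, *Sox9* and *Cd24a* did not pass the adjusted p. The libraries of 9 of the 10 markers, counting the untested *Epcam*, did not overlap between UH and UN, which was so for 51.1% of genes tested. The median log2(TPM + 1) difference of the 9 markers was −0.34 and that of all genes was −0.19. Median-of-ratios scaling moved the median of all genes from −0.19 to 0, so *Cd24a* was −0.08 in the deposited TPM and 0.27 after that scaling, in neither case called. After median-of-ratios scaling *Prom1*, *Ncam1* and *Anpep* were called higher and *Cd44* lower, and after quantile normalization *Gpc3* was called lower as well. Relative to the median of all genes the 4 markers called in the deposited TPM kept their direction. Without UN replicate 2 the count was 2 (*Cd44* and *Prom1*), and without UH replicate 1 it was 6.

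Hypoxia in sorted cells (SH against SN) gave a single call, the rise of *Ncam1*. This was 1 of 9 tested markers, beside 12.5% of all genes called. *Afp*, *Cd24a*, *Cd44* and *Icam1* passed the adjusted p with differences under the fold threshold. Libraries did not overlap for 6 of the 10 markers, against 56.8% of genes tested. The median of the 9 markers was −0.01 and that of all genes 0.03. With a pseudocount of 0.1, *Icam1* and *Anpep* were called as well, and without SH replicate 3 *Afp* was.

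**Figure D3:**
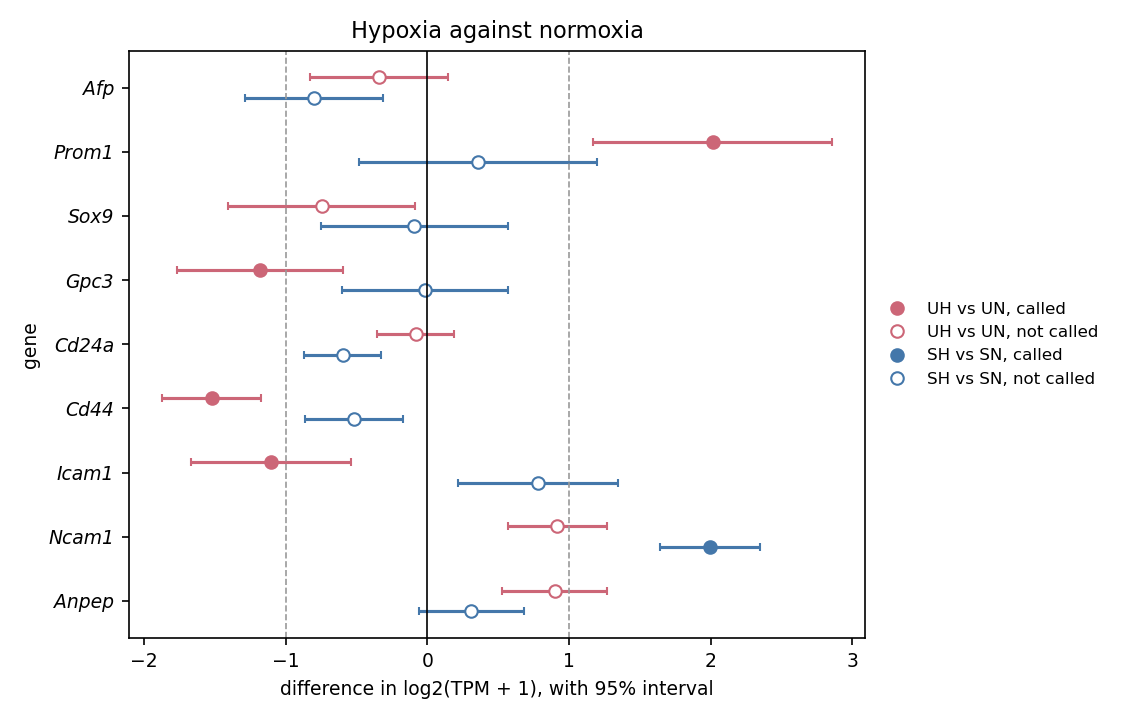
Difference in log2(TPM + 1) between hypoxia and normoxia (horizontal axis) for the 9 tested markers (vertical axis), in unsorted cells (UH vs UN, red) and sorted cells (SH vs SN, blue). Bars are 95% intervals from limma with n = 3 libraries a group, filled points were called, and dashed lines mark the fold threshold. *Icam1* lies on opposite sides of 0 in the 2 populations, at −1.10 and 0.78.

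Responses to hypoxia were compared directly between the populations by testing (SH − SN) − (UH − UN). This difference was called for *Prom1*, *Gpc3*, *Cd44*, *Icam1* and *Ncam1*, which were 5 of 9 tested markers, beside 10.3% of all genes. For *Icam1* it was 1.88 (SE 0.365, limma adjusted p = 0.00435), with a fall in unsorted cells and a positive difference in sorted cells. The call of *Icam1* held in all alternatives run, between 1.40 and 3.14. *Icam1* was at most 0.388 TPM in SN, so on this scale a fall past the fold threshold could not be measured in sorted cells. For *Ncam1* it was 1.07 (SE 0.228, limma adjusted p = 0.00697), a larger rise in sorted cells, and the call was lost without UH replicate 1 (0.86) and after median-of-ratios scaling (0.73). For *Cd44* it was 1.01 (SE 0.225, limma adjusted p = 0.00930), a smaller fall in sorted cells. It was at the fold threshold, and 5 of 12 fits without 1 library kept the call, while median-of-ratios scaling gave 0.66. For *Prom1* (−1.65, SE 0.543, limma adjusted p = 0.0490) and *Gpc3* (1.17, SE 0.378, limma adjusted p = 0.0463) the adjusted p was close to the threshold. These calls were kept in 2 of 12 and in 1 of 12 fits without 1 library, with ranges of −2.17 to −1.36 and of 0.94 to 1.58. *Gpc3* in sorted cells was also below 0.2 TPM in both conditions, and below 1 TPM in each UH library. Medians were 0.66 for the 9 markers and 0.25 for all genes. The comparisons UH against UN and SH against SN have no library in common.

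Sorted and unsorted cells differed in normoxia (SN against UN) for the oncofetal markers in opposite directions. *Afp* and *Prom1* rose and *Gpc3* and *Icam1* fell. These were 4 of 9 tested markers, beside 10.8% of all genes called. *Cd24a* and *Ncam1* passed the adjusted p but not the fold threshold. *Sox9*, *Cd44* and *Anpep* did not pass the adjusted p, with *Cd44* at −0.07 (95% interval −0.42 to 0.28). Libraries did not overlap for 8 of the 10 markers, counting the untested *Epcam*, against 49.0% of genes tested. The 4 calls held in all alternatives run for them. Medians were −0.07 for the 9 markers and −0.06 for all genes.

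In hypoxia (SH against UH) only *Afp* of the markers was called between sorted and unsorted cells, 1 of 9, beside 13.0% of all genes. *Cd44* (0.93), *Anpep* (−0.98) and *Sox9* (0.82, limma adjusted p = 0.0461) passed the adjusted p without reaching the fold threshold. *Anpep* was called after both scalings and with the smaller pseudocount. *Prom1* had a difference of 0.82 (limma adjusted p = 0.109), and *Icam1* of 0.07 (95% interval −0.49 to 0.63). Libraries of 6 of the 10 markers did not overlap, against 51.7% of genes tested. Medians were 0.17 for the 9 markers and 0.17 for all genes.

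**Figure D4:**
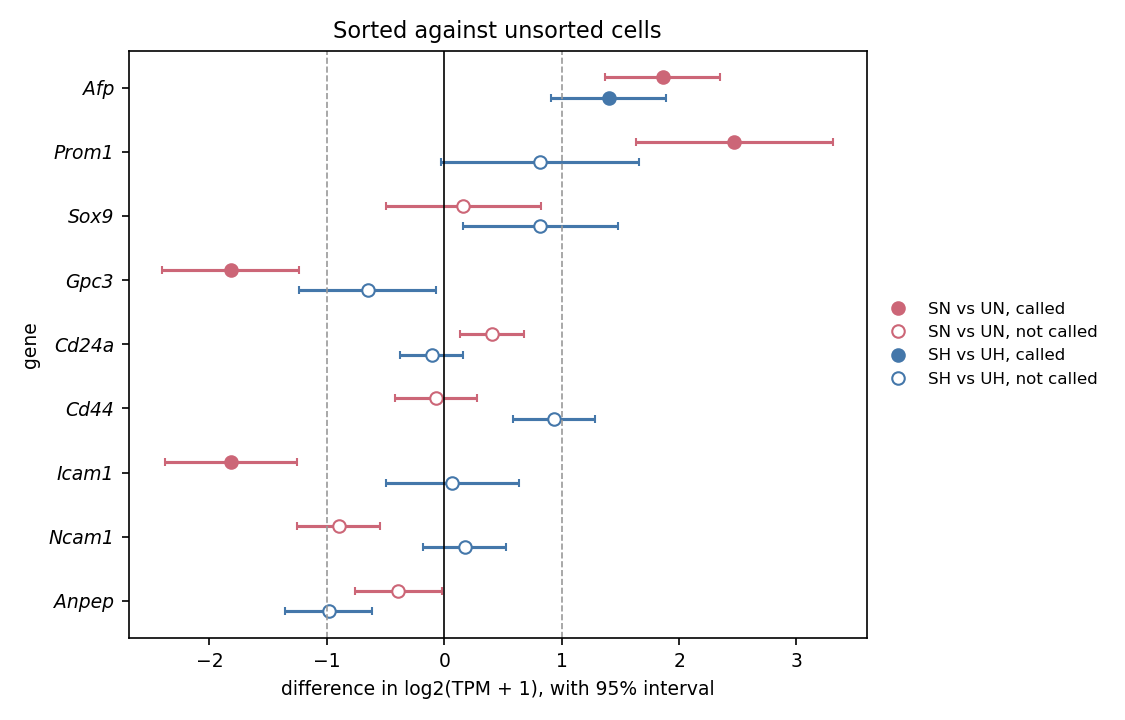
Difference in log2(TPM + 1) between sorted and unsorted cells (horizontal axis) for the 9 tested markers (vertical axis), in normoxia (SN vs UN, red) and in hypoxia (SH vs UH, blue). Bars are 95% intervals from limma with n = 3 libraries a group, filled points were called, and dashed lines mark the fold threshold. *Afp* is called in both conditions, at 1.86 and 1.40.

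The diagonal comparisons share libraries with those above and are given as values. In SH against UN, 5 of 9 tested markers were called, beside 20.3% of all genes. *Afp* (1.06), *Prom1* (2.83) and *Ncam1* (1.09) were higher, and *Gpc3* (−1.83) and *Icam1* (−1.03) were lower. The call of *Afp* was lost without SH replicate 3 (0.81) or UN replicate 1 (0.96), and that of *Icam1* without SH replicate 1, UN replicate 2 or UN replicate 3, with a smallest difference of −0.82, and after median-of-ratios scaling (−0.92) and quantile normalization (−0.99). Without UN replicate 1 the differences of *Prom1*, *Gpc3* and *Icam1* were 3.34, −2.24 and −1.36. In SN against UH, 4 of 9 were called, beside 21.4% of all genes. *Afp* (2.20) and *Cd44* (1.45) were higher, and *Ncam1* (−1.82) and *Anpep* (−1.29) were lower. Libraries of 8 of the 10 markers did not overlap in either of these comparisons, against 59.4% of genes tested in each. In SH against UN the 8 included the untested *Epcam*.

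Of 28 other genes of hepatoblasts and liver progenitors, listed with earlier results of these data known, 23 were tested. In SN against UN, *Krt7* was called higher and 9 genes were called lower, beside 10.8% of all genes called. The lower genes included *Dlk1* (−5.06, limma adjusted p = 2.47e-05), a surface protein used to isolate hepatoblasts, *Krt19* (−5.00, limma adjusted p = 6.06e-07), a biliary and progenitor keratin, and *Igf2* (−4.41, limma adjusted p = 2.30e-07), a fetal growth factor. *Dlk1* was 13.5, 83.8 and 78.7 TPM in UN, 80.4, 81.9 and 74.9 TPM in UH, 0.270, 0.301 and 0.596 TPM in SN, and 1.27, 1.61 and 0.559 TPM in SH. *Igf2* averaged 95.7 ± 24.8 TPM in UN and 3.56 ± 1.44 TPM in SN (SD, n = 3). Hence 2 secreted or shed fetal products were far lower in the libraries where *Afp* was higher. The median of the 23 genes was −0.31, beside −0.06 over all genes. Without UN replicate 1 the counts were again 1 higher and 9 lower, with *Dlk1* at −5.90 and *Krt19* at −5.46.

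In UH against UN, 3 of the 23 were called higher and 10 lower, beside 17.2% of all genes called. *Krt19* rose by 3.06 (limma adjusted p = 1.55e-05), from 62.0 ± 28.7 to 481.2 ± 49.3 TPM (SD, n = 3), or by 2.60 without UN replicate 1, and *Spp1* and *Cdh1* fell as given above. Transcription factors of hepatoblasts were among the genes that fell, including *Hnf4a* (−1.97, limma adjusted p = 5.42e-05), the central regulator of hepatocyte identity. The median was −0.74, beside −0.19 over all genes. In SH against SN, 3 were called higher and 3 lower, beside 12.5% of all genes called, and the median was −0.18, beside 0.03 over all genes. The largest differences were in *Spp1*, *Peg3* (−1.96, limma adjusted p = 6.46e-05), an imprinted zinc-finger gene, and *Krt19* (1.69, limma adjusted p = 0.00152). In SH against UH, 5 were called higher and 6 lower, beside 13.0% of all genes, led by *Krt19* (−6.37), *Dlk1* (−5.25) and *Igf2* (−4.81). The difference between responses was called for 6 of the 23, beside 10.3% of all genes, led by *H19* (−2.57), *Hnf4a* (1.79) and *Cdh1* (1.74), and for 5 after median-of-ratios scaling. For *Hnf4a* and *Cdh1* this difference is bounded by their low means in SN, of 0.263 and 0.530 TPM.

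**Figure D5:**
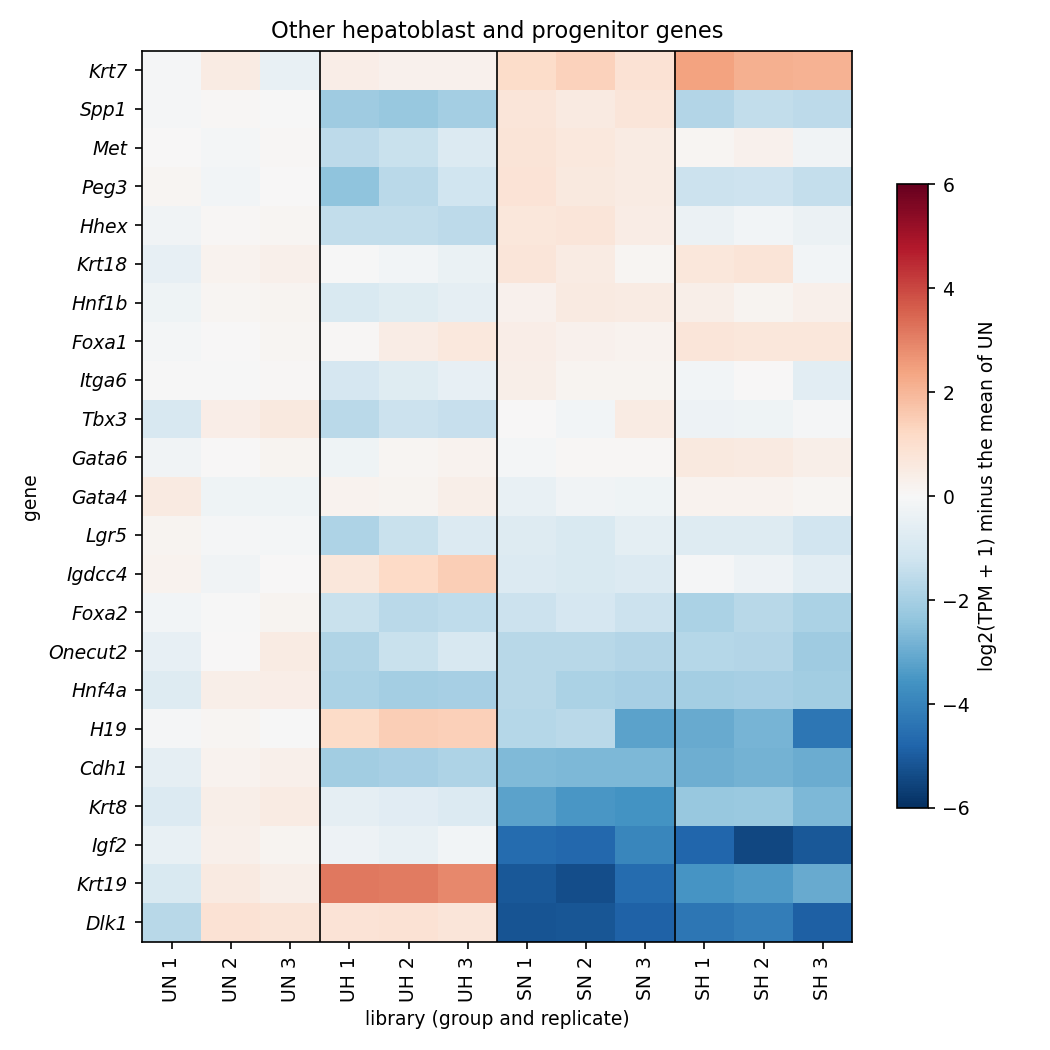
Log2(TPM + 1) of 23 other hepatoblast and progenitor genes (rows) in each library (columns) minus the mean of the 3 UN libraries, on a color scale from −6 to 6. Rows are ordered by their mean in SN. The lowest rows, *Igf2*, *Krt19* and *Dlk1*, are blue in the 6 sorted libraries, and *Krt19* is red in the 3 UH libraries.

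Of the 27 listed partners of the markers (ligands, relatives, processing enzymes and related receptors), 22 were tested. In UH against UN, 1 was called higher and 5 lower, beside 17.2% of all genes called, and in SH against SN 1 was called higher and 3 lower, beside 12.5%. The gene higher in SH than in SN was *Esrp2* (1.30, limma adjusted p = 7.55e-04), an epithelial splicing factor that acts on *Cd44* transcripts. In SN against UN, 1 was called higher and 4 lower, beside 10.8% of all genes, and without UN replicate 1 the counts were 0 and 6. In SH against UH, 2 were called higher and 3 lower, beside 13.0% of all genes, including *Dpp4* (−2.34), *Has2* (−2.22) and *Hmmr* (1.93). The difference between responses was called for 4 partners, beside 10.3% of all genes, of which the largest were *Has2* (2.82, limma adjusted p = 1.14e-04), *Hmmr* (2.35, limma adjusted p = 1.23e-04) and *Dpp4* (−1.81, limma adjusted p = 0.00162). For *Has2* this difference is bounded by its level of at most 0.337 TPM in SN. For *Has3* the difference between responses was −0.08 (limma adjusted p = 0.821). Medians of the 22 partners were −0.44 in UH against UN, −0.03 in SH against SN, −0.31 in SN against UN and 0.17 in SH against UH. Those of all genes were −0.19, 0.03, −0.06 and 0.17 in the same order.

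Sums of other marker lists also differed between groups. The 8 cholangiocyte markers, which include *Krt7* and *Krt19*, summed to 133.7 to 220.1 TPM in UN, 512.5 to 582.4 TPM in UH, 153.1 to 180.3 TPM in SN and 160.8 to 181.1 TPM in SH. The sum in UH was mostly *Krt19*, at 424.4 to 513.2 TPM, which was the 1 of the 8 called in UH against UN, and the median difference of the 8 there was −0.42. The 12 endothelial markers summed to 20.8 to 50.7 TPM in UN, 44.6 to 53.7 TPM in UH, 6.54 to 7.63 TPM in SN and 14.9 to 19.8 TPM in SH, and the endothelial cadherin *Cdh5* was at most 0.0967 TPM. The sums in UN and UH were led by *Eng*, a co-receptor for TGF-β family ligands, at 8.67 to 41.4 TPM in UN and 34.8 to 43.6 TPM in UH against 1.07 to 1.20 TPM in SN. Of 7 endothelial markers tested in SN against UN, *Tek* and *Plvap* were called higher and *Eng* and *Egfl7* lower. The 8 leukocyte markers summed to 5.14 to 9.76 TPM in UN, 21.5 to 22.6 TPM in UH, 9.73 to 14.5 TPM in SN and 58.8 to 63.3 TPM in SH, mostly from *Cd68*, a lysosomal gene. Their part in the marker differences was not tested.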

How the data were processed

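RNA-seq was performed on 12 libraries of BN1-Tie2-EGFP cells. RNA was prepared with a stranded mRNA kit and sequenced as paired ends. The authors processed the reads with nf-core/rnaseq 3.12.0 and deposited a gene table of TPM from Salmon, with mm10 named in the submitters' processing notes. Pooling of replicates is not stated, and read counts were not used here. Here log2(TPM + 1) was fitted, for 18909 genes that averaged 0.1 TPM or more, with limma 3.58.1 in R 4.3.3 (4 group means, empirical Bayes with a trend), and p-values were adjusted over all genes tested. Python 3.11.15 was used for tables (pandas 2.3.3, numpy 2.4.6), permutation tests (scipy 1.17.1) and plots (matplotlib 3.10.9).

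The libraries were grouped by their labels. The study describes 3 independent replicas per group, but the labels do not say whether they were separate cultures, so p-values measure the spread between these libraries. The depth per library is unknown from TPM, so no counting intervals are given. Gene coordinates are from GENCODE M21 (GRCm38), in which 45143 of 45706 identifiers were found, and the upstream sequences are placed by RefSeq starts. The named genes are the 10 markers, up to 3 called genes with the largest difference per list and comparison, genes of the albumin cluster and its regulators, marker genes beside a result, and for each marker with group means more than 1 apart the 2 genes of highest Pearson's r, which for *Anpep* are not reported here. *Gpc1*, *Vcam1*, *Relb*, *Nfkbia*, *Enpep* and *Esrp2* were in the list of partners, and some were named after their values were seen. Members and lists were chosen with earlier results of these data known. Alternatives were a pseudocount of 0.1, no filter, a filter at a mean of 1 TPM, median-of-ratios scaling, quantile normalization, moderation without a trend, the compared groups alone, a replicate block and leaving out each library. For the lists, both scalings and the fit without UN replicate 1 were added after seeing the data.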

Additional observations from a re-analysis of the deposited data

Results flagged for a closer look

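For 5 markers the response to hypoxia differed between sorted and unsorted cells by a test of the difference itself, (SH − SN) − (UH − UN), with a limma adjusted p under 0.05 and a log2(TPM + 1) difference beyond 1. The values were 1.88 for *Icam1*, 1.07 for *Ncam1*, 1.01 for *Cd44*, 1.17 for *Gpc3* and −1.65 for *Prom1*. These calls were not equally firm. Of 12 fits without 1 library, the call was kept in 12 for *Icam1* and 11 for *Ncam1*. It was kept in 5 for *Cd44*, 2 for *Prom1* and 1 for *Gpc3*. In SN, *Icam1* was at most 0.388 TPM and *Gpc3* at most 0.173 TPM, too low to measure a fall past the fold threshold. *Icam1* was lower in all 3 UH libraries than in every UN library, and higher in all 3 SH libraries than in every SN library. *Ncam1* was higher in hypoxia in all libraries of both populations, and *Cd44* was lower in hypoxia in all libraries of both. *Prom1* and *Gpc3* did not overlap between UH and UN and overlapped between SH and SN. Groups of 3 libraries are too small for a test of single outlying libraries.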

How the results depend on the processing

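The 24 marker differences that were called kept their direction in all alternatives run, and 16 of them kept the call in each. The number of markers called changed by over 1.5 times in these settings. In UH against UN (4 called) it was 2 to 6 without 1 library. In SH against SN (1) it was 3 with a pseudocount of 0.1 and 1 to 2 without 1 library. In SH against UH (1) it was 3 with that pseudocount, 2 after median-of-ratios scaling, 2 after quantile normalization and 1 to 3 without 1 library. For the difference between responses (5) it was 3 without the filter, 2 after median-of-ratios scaling, 3 after quantile normalization and 1 to 5 without 1 library. Smaller changes gave 3 to 5 in UH against UN, 3 to 5 in SN against UN (4), 4 to 5 in SH against UN (5) and 3 to 6 in SN against UH (4) over the settings that kept all libraries. The compared groups alone could not give the difference between responses. Values of markers that were not called changed sign 18 times. With median-of-ratios scaling these were *Cd24a* in UH against UN (0.27), *Cd44* in SN against UN (0.048), and *Icam1* (−0.054) and *Ncam1* (−0.048) in SH against UH. With quantile normalization they were *Cd24a* in UH against UN (0.096) and in SH against UN (0.012), *Sox9* in SH against SN (0.018) and *Icam1* in SH against UH (−0.094). Without 1 library, *Cd24a* in UH against UN ran from −0.17 to 0.014, *Sox9* in SH against SN from −0.33 to 0.36, in SN against UN from −0.29 to 0.40 and in SH against UN from −0.034 to 0.14. *Gpc3* in SH against SN ran from −0.062 to 0.054, and in SH against UH *Icam1* ran from −0.055 to 0.28 and *Ncam1* from −0.044 to 0.35. The cause of these changes was not tested.

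Same-numbered libraries of different groups did not deviate together. Their residuals correlated at −0.116 to 0.141 over 18 pairs, of which 1 was over 0.1, and a library correlated best with its own number in 11 of 36 cases, so the numbers were not treated as pairs. With a replicate block the counts of called markers were 4, 1, 4, 1, 5 and 4 in UH against UN, SH against SN, SN against UN, SH against UH, SH against UN and SN against UH. For the difference between responses the replicate block gave 4, without *Gpc3* (1.17, limma adjusted p = 0.0559). Because TPM carry no depth, differences of *Epcam*, *Anpep*, *Gpc3*, *Icam1* and *Alb* at under 1 TPM have a counting error that could not be estimated.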

Other observations

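The genes whose log2(TPM + 1) ran most closely with a marker over the 12 libraries are given as a description, since these libraries share their groups and their cultures. They are named for markers whose group means spanned more than 1 on this scale. The closest genes by Pearson's r were *Trmt2a* (0.984) and *Nts* (0.966) for *Afp*, and *Txndc15* (0.994) and *Lipa* (0.990) for *Gpc3*. They were *Gdpd3* (0.972) and *Ppap2c* (0.969) for *Prom1*, and *Mtfr1* (0.984) and *Rprd1b* (0.980) for *Cd44*. *Vnn1* (0.964) and *Gdap1l1* (0.961) were closest to *Icam1*, and *Klhdc1* (0.979) and *Kdm5b* (0.978) to *Ncam1*.

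Among the markers themselves, the strongest positive relation over the 12 libraries was between *Gpc3* and *Icam1* (r = 0.883), and the strongest negative relations were those of *Prom1* with *Gpc3* (r = −0.942) and with *Icam1* (r = −0.829). *Cd44* and *Anpep* gave r = −0.811. *Afp* reached r = −0.761 with *Anpep*. Each of these is over libraries that fall into 4 groups.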
